A study of Mus musculus with 8 samples.

Results

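Clock output factors are transcription factors whose genes the circadian clock drives and which pass its rhythm on to other genes. 7 of them, Dbp, Tef, Hlf, Nfil3, Bhlhe40, Bhlhe41 and Ciart, were followed in mouse esophageal epithelium sorted by autophagic vesicle content. They were taken from the 55276 gene symbols of the deposited count matrix as a named list, and all 7 passed the filter on low counts that left 17344 genes for testing. The list was chosen by its levels as well as its function, because Hlf, Tef and Nfil3 had been found lower in 1 of the sorted fractions in these same libraries. The difference between the fractions is therefore given for the 7 genes as a description, with no p-value, and supports nothing.

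The libraries came from 4 C57BL6 mice aged 14 to 15 weeks, called Female1, Female2, Male1 and Male2. No genetic change or drug is given for any of them. The peeled epithelium of each animal was dissociated with dispase and trypsin, and live cells, negative for DAPI and positive for integrin-b1, were sorted by the fluorescent dye Cyto-ID, which labels autophagic vesicles. Each animal gave 1 Cyto-ID Low and 1 Cyto-ID High library, so that each fraction had 4 libraries and each sex 2 animals. The hour of collection is not given in the sources used here.

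The clock of a mammalian cell is a feedback loop in which the activators CLOCK, NPAS2 and BMAL1 (the product of Arntl) bind E-boxes and switch on the Per, Cry and Nr1d genes, whose products switch the activators off again. Dbp, Tef and Hlf encode the PAR bZIP activators, which bind a short element called the D-box, and Nfil3 encodes a bZIP repressor that competes for the same element. Bhlhe40 and Bhlhe41 encode the repressors DEC1 and DEC2, which bind E-boxes, and Ciart encodes CHRONO, a repressor that acts on the CLOCK and BMAL1 pair. In stratified epithelia the clock is known for timing cell division and differentiation.

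Promoter sequence in RefSeq (GRCm38.p6) was matched for 6 of the 7 genes, with Bhlhe40 unmatched, and gave 7 windows of 250 bases upstream of a start, since Tef had 2 starts. The 5 elements searched on both strands were the E-box CACGTG, the variant E-box CACGTT, the D-box as TTATGTAA or TTACGTAA, the core of the REV-ERB element TAGGTCA, and the cAMP response element TGACGTCA. Among 32851 RefSeq promoter windows of that length, 6.02% held the E-box, 3.85% the variant E-box, 0.931% the D-box, 2.23% the REV-ERB core and 1.55% the cAMP response element. Ciart held 3 E-boxes, whose first bases lay 116, 58 and 44 bases upstream of the start. Each start of Tef held 1 E-box, at 127 and 138 bases, and Bhlhe41 held 1 at 153 bases. Hlf held the cAMP response element 9 bases upstream and Nfil3 the REV-ERB core 12 bases upstream. The Dbp window held none of the 5. Some windows run into exons annotated by GENCODE M21. The longest stretch free of exons ended 159 bases upstream for Dbp and 34 bases upstream for Nfil3, short of its REV-ERB core. The window of the upstream Tef start, with its E-box at 127 bases, lay wholly in annotated exon. The windows below belong to members whose levels are set side by side later, and show where the matches lie, in capitals, within the stretch that carries no annotated exon. They cover chr15:81811164-81811413 (plus strand) for the downstream start of Tef, chr3:95882252-95882478 (minus strand) for Ciart, chr6:145865559-145865670 (minus strand) for Bhlhe41 and chr11:90390918-90391167 (minus strand) for Hlf. A match is a description of the letters in the window and not evidence of binding.
Tef: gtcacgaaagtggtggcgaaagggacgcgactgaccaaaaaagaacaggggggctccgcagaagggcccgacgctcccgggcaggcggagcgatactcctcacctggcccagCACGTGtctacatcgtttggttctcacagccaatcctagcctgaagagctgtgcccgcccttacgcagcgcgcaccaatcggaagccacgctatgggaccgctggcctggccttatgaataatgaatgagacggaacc
Ciart: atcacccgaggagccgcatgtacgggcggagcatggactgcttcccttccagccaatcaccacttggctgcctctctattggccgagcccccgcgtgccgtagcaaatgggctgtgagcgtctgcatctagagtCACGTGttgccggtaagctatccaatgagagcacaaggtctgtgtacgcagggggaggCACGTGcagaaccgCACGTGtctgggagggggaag
Bhlhe41: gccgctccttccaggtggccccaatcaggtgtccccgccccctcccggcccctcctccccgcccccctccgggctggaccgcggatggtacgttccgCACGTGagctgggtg
Hlf: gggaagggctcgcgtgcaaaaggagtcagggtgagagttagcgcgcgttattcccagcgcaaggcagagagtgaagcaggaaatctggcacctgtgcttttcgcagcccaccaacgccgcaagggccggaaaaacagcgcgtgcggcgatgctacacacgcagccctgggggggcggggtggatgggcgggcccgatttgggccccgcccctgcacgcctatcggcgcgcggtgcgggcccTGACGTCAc

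Total counts ran from 26285150 to 28599954 in Low and from 27486049 to 29301054 in High. Levels are CPM, each count relative to its library total, corrected for differences in RNA make-up by TMM factors (trimmed mean of M values). All 10 basal keratinocyte markers, among them Krt5 and Itgb1, were lower in High by edgeR's quasi-likelihood test, and their summed level was 22030 to 26250 CPM in Low and 2882 to 4577 CPM in High. All 9 suprabasal markers tested were higher in High, with a sum of 8645 to 26020 CPM in Low and 146400 to 246600 CPM in High, and Rhcg did not pass the filter. Summed dissociation-stress genes ran from 16600 to 20770 CPM in Low and from 11440 to 25150 CPM in High. Gastric epithelium markers summed to 18.6 CPM in the Low and 115 CPM in the High library of Female2 and to at most 1.03 CPM elsewhere, and none passed the filter. The High library of Male2 held the least fibroblast RNA, at 40.9 CPM against 195 to 606 CPM in the other High libraries. The part of these markers in the differences described for the clock output factors was not tested, and in bulk RNA fewer cells of a type and less RNA per cell cannot be told apart.

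Levels per kilobase of exon (RPKM, GENCODE M21 exon lengths) allow the genes to be ranked against each other. In Low, Bhlhe40 stood at 163 ± 48.8 RPKM (SD, n = 4), Nfil3 at 25.5 ± 7.56, Tef at 10.1 ± 5.71, Dbp at 4.95 ± 5.64, Hlf at 3.17 ± 0.665, Bhlhe41 at 1.01 ± 0.321 and Ciart at 0.314 ± 0.108. The ranges of Tef and Dbp overlapped, as did those of Dbp and Hlf, while the other neighbours in this order were apart in range. In High, Bhlhe40 stood at 165 ± 66.5 RPKM (SD, n = 4), Nfil3 at 15.8 ± 1.21, Tef at 6.05 ± 4.94, Dbp at 2.31 ± 2.37, Ciart at 0.908 ± 0.733, Hlf at 0.563 ± 0.0999 and Bhlhe41 at 0.369 ± 0.0429. Here the ranges of Tef and Dbp, of Dbp and Ciart, and of Ciart and Hlf overlapped, while Hlf and Bhlhe41 were apart. Bhlhe40 was thus the most abundant of the 7 in each of the 8 libraries, and by its mean Ciart stood last in Low and above Hlf and Bhlhe41 in High, though in High Male1 it was still the lowest of the 7 at 0.354 RPKM, and Male2 reached 1.98 RPKM.

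**Figure D1:**
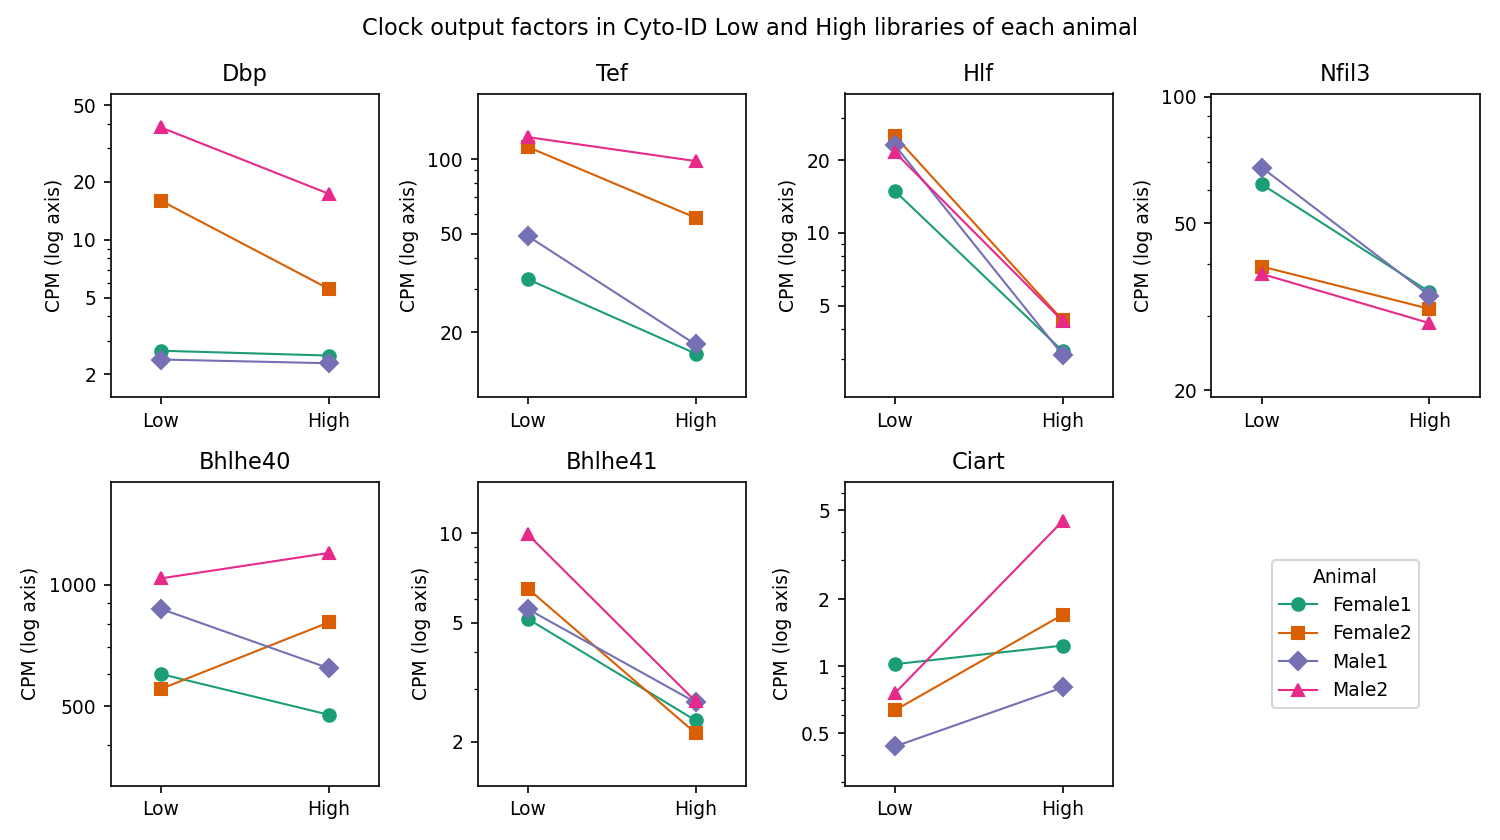
TMM-scaled CPM (log axis) of the 7 clock output factors in the Cyto-ID Low and High library of each animal, with 1 line per animal joining its 2 libraries. Hlf, Nfil3, Bhlhe41, Tef and Dbp go down along every line, Dbp only slightly in Female1 and Male1. Ciart goes up along every line, and the lines of Bhlhe40 run in both directions. For Dbp and Tef the lines of Female2 and Male2 lie above those of Female1 and Male1.

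Hlf encodes hepatic leukemia factor, a PAR bZIP activator that is also known from blood stem cells. It was the member with the largest difference between the fractions and the smallest differences between animals among the 3 activators. The gene lies at chr11:90336536-90390895 on the minus strand (GRCm38), and no other annotated exon overlaps its exons. Hlf stood at 14.9, 25.2, 23.1 and 21.6 CPM in the Low libraries of Female1, Female2, Male1 and Male2, and at 3.24, 4.35, 3.13 and 4.32 CPM in their High libraries. Every High library lay below every Low library. The log2 fold change, High minus Low, was −2.50 (SE 0.22), and the 4 animals gave −2.18, −2.51, −2.86 and −2.30.

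Tef encodes thyrotroph embryonic factor, the most abundant of the 3 activators per kilobase in every library, at 49.3 to 74.6% of their summed RPKM. The gene lies at chr15:81802421-81826863 on the plus strand and shares 193 bases of exon with an antisense gene. Tef stood at 32.7, 112, 48.9 and 123 CPM in the Low libraries of Female1, Female2, Male1 and Male2, and at 16.4, 58.0, 17.9 and 98.2 CPM in High. High was below Low within each animal, but the fractions overlapped, because the High libraries of Female2 and Male2 lay above the Low libraries of Female1 and Male1. The log2 fold change was −0.76 (SE 0.60) with sex as the covariate and −0.92 (SE 0.18) with the animal as a replicate block. Leaving out 1 library moved it from −0.32, without Low Female2, to −1.44, without High Male2.

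Dbp encodes D-site albumin promoter binding protein, a direct E-box target of the clock with one of the deepest daily rhythms known in many tissues. The gene lies at chr7:45705088-45710203 on the plus strand, and 539 bases of its exons overlap exons of Sphk2 on the other strand. Dbp stood at 2.66, 16.0, 2.39 and 38.3 CPM in the Low libraries of Female1, Female2, Male1 and Male2, and at 2.51, 5.57, 2.29 and 17.3 CPM in High. In Female1 and Male1 the fractions lay close together, with differences of −0.08 and −0.06 on the log2 scale, and in Female2 and Male2 they lay apart, with −1.505 and −1.14. The log2 fold change over all libraries was −1.14 (SE 0.86), and −0.78 (SE 0.26) with the animal as a replicate block. The value was −0.17 without Low Male2, −1.90 without High Male2 and −0.53 without Low Female2, so that its size rested on libraries of Male2 and Female2.

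Nfil3 encodes the repressor also called E4BP4, which is known as well for immune cell development. The gene lies at chr13:52967209-52981073 on the minus strand with no overlapping exon. Nfil3 stood at 61.8, 39.4, 67.8 and 37.9 CPM in the Low libraries of Female1, Female2, Male1 and Male2, and at 34.3, 31.3, 33.6 and 28.9 CPM in High. Every High library lay below every Low library, and the Low libraries were spread more widely (SD 15.3 against 2.45 CPM). The log2 fold change was −0.69 (SE 0.21). It was −0.85 in Female1 and −1.01 in Male1, and −0.33 in Female2 and −0.39 in Male2.

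The summed RPKM of Dbp, Tef and Hlf over the RPKM of Nfil3 gives the ratio of activator to repressor transcript in 1 library. It was 0.239, 1.20, 0.313 and 1.69 in the Low libraries of Female1, Female2, Male1 and Male2, and 0.201, 0.641, 0.211 and 1.33 in High. The ratio was lower in High within each animal. It was above 1 in both libraries of Male2 and in the Low library of Female2, and both libraries of Female1 and of Male1 lay below all libraries of Female2 and Male2. These are ratios of transcript levels, and protein was not measured.

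**Figure D2:**
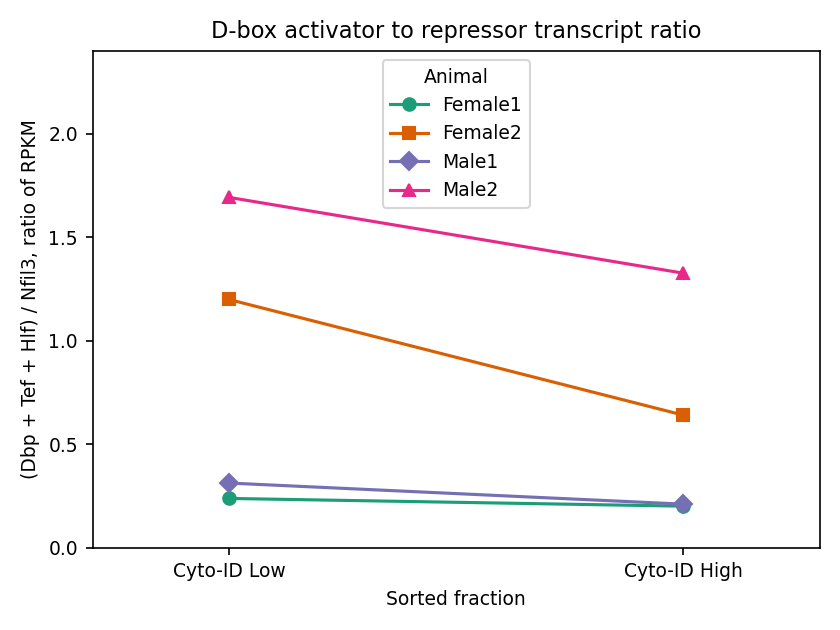
Ratio of the summed RPKM of Dbp, Tef and Hlf to the RPKM of Nfil3 in the Cyto-ID Low and High library of each animal, with 1 line per animal. Female1 and Male1 lie between 0.201 and 0.313 in both fractions, below Female2 and Male2, which lie between 0.641 and 1.69.

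The E-box repressors and Ciart did not share 1 direction. Bhlhe41, at chr6:145858243-145865558 on the minus strand with 1280 bases of exon shared with an antisense gene, stood at 5.16, 6.52, 5.56 and 9.90 CPM in the Low libraries of Female1, Female2, Male1 and Male2 and at 2.35, 2.13, 2.71 and 2.73 CPM in High. All High libraries lay below all Low libraries, with a log2 fold change of −1.44 (SE 0.23). Its close relative Bhlhe40, at chr6:108660629-108666925 on the plus strand with 118 such bases, stood at 600, 552, 871 and 1037 CPM in Low and at 476, 806, 621 and 1199 CPM in High. The fractions overlapped, High lay above Low in Female2 and Male2 and below it in Female1 and Male1, and the log2 fold change was 0.04 (SE 0.25).

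Ciart, at chr3:95878503-95882251 on the minus strand with no overlapping exon, was the scarcest member in Low and the only one that was higher in High in all 4 animals. It stood at 1.02, 0.632, 0.435 and 0.755 CPM in the Low libraries of Female1, Female2, Male1 and Male2, and at 1.24, 1.70, 0.801 and 4.48 CPM in High. The fractions overlapped, since High Male1 lay below Low Female1. The log2 fold change was 1.47 (SE 0.55), it was 0.68 without High Male2, and all of it rested on 14 to 87 counts per library.

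By edgeR's quasi-likelihood test at an adjusted p under 0.05, the background was 48.7% of all 17344 genes tested, with 25.3% lower and 23.4% higher in High. As a description, 3 of the 7 clock output factors met the same limit, namely Hlf, Nfil3 and Bhlhe41, all lower in High, and Nfil3 did not meet it without Low Female1, High Female2 or Low Male1. Hlf, Nfil3 and Bhlhe41 also had all High libraries below all Low libraries, as did 24.9% of all genes tested. With the animal as a replicate block, 6 of 7 met the limit, 5 lower and Ciart higher (1.303, SE 0.42), against a background of 53.8%. Nothing is read from these shares, since the genes were chosen with this contrast in view. The median log2 fold change was −0.76 over the 7 genes and −0.09 over all genes tested. Scaling by total counts alone moved the median of all genes to −0.635 and that of the 7 to −1.44, with Bhlhe40 at −0.56, Ciart at 0.85 and Nfil3 at −1.24, so that the differences stand relative to the scaling.

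The libraries can also be compared between animals, a contrast that played no part in the choice of the genes. Dbp and Tef differed most between animals among the 7. Averaged over both fractions, Dbp spanned 10.7-fold from Male1 to Male2 and Tef 4.73-fold from Female1 to Male2. The other members spanned less, with Ciart at 2.92-fold, Bhlhe40 at 2.09-fold, Hlf at 1.501-fold, Bhlhe41 at 1.48-fold and Nfil3 at 1.44-fold. Across all genes, edgeR's F test of the 3 animal coefficients, with the fraction in the model, called 6 of 17344 genes, a background of 0.0346%, and 2752 had an unadjusted p under 0.05.

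None of the 7 clock output factors passed that test, and 3 had an unadjusted p under 0.05. Dbp ranked 11 among all genes with an unadjusted p of 4.36e-05 and an adjusted p of 0.0621 by edgeR. Tef ranked 18 with an unadjusted p of 7.93e-05 and an adjusted p of 0.076 by edgeR. Bhlhe40 followed with an unadjusted p of 0.0294 and an adjusted p of 0.273, and the adjusted p of the other 4 lay between 0.349 and 0.494 by edgeR. The called gene nearest in function was Nr1d1, which encodes the clock repressor REV-ERB alpha and spanned 6.23-fold (edgeR adjusted p = 0.0219). The other 5 called genes were Xist and the Y-linked Kdm5d, Ddx3y and Uty, which separate the sexes, and the predicted gene Gm10800. Over 13 alternative settings the edgeR adjusted p ran from 6.48e-09 to 0.349 for Dbp, past the threshold in 1, from 1.96e-07 to 0.339 for Tef, past it in 4, and from 1e-08 to 0.235 for Nr1d1, which lost its call in 8. The call for Nr1d1 was lost without Low Female1 (edgeR adjusted p = 0.186), Low Female2 (0.192), Low Male1 (0.163), High Female1 (0.133), High Female2 (0.147) or High Male1 (0.0696).

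The direction of the animal differences was shared by several genes. From lowest to highest, Tef ran Female1, Male1, Female2, Male2 within Low and again within High, and so did Nr1d1, Per3 and Cry2 of the core loop. Dbp kept the same order except that Male1 lay below Female1. Nr1d1 stood at 57.3, 285, 81.8 and 318 CPM in the Low libraries of Female1, Female2, Male1 and Male2, and at 74.1, 303, 86.3 and 520 CPM in High. Nfil3 ran the other way, with Female2 and Male2 below Female1 and Male1 in both fractions, and so did Cry1, which encodes a repressor of the loop, at 31.1, 4.84, 26.6 and 7.88 CPM in Low and 23.9, 16.7, 23.6 and 15.1 CPM in High. Animals numbered 2 lay above those numbered 1 in both fractions for 2 of the 7 clock output factors and 4 of the 15 core loop genes reported, against 15.5% of all genes. They lay below for 1 of 7 and 1 of 15, against 8.49%. This split of the animals follows the order of Dbp, Tef and Nr1d1 given above, so the counts are a description only. The number is only part of an animal's name in the labels, which tie no batch to it.

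Some other measures moved with the same animals. Summed suprabasal markers were 12840, 19870, 8645 and 26020 CPM in the Low libraries of Female1, Female2, Male1 and Male2, and 146700, 189000, 146400 and 246600 CPM in High, and 6 of the 9 tested lay above in Female2 and Male2 in both fractions. Of the 10 basal markers 3 (Krt15, Dst and Sox2) did so and 1 (Krt14) lay below. Of the 12 dissociation-stress genes 3 did so, and the sum of all 12 in High was 11440, 19340, 14180 and 25150 CPM in the same order of animals, against 16600, 17940, 20770 and 18270 CPM in Low. In High, leukocyte markers summed to 126, 45.2, 90.0 and 10.9 CPM in Female1, Female2, Male1 and Male2, lowest in Female2 and Male2, and fibroblast, endothelial and muscle sums were likewise lower in these animals. In Low the leukocyte, fibroblast and endothelial sums did not follow the same animals. Leukocyte markers stood there at 122, 75.9, 79.6 and 99.7 CPM and fibroblast markers at 573, 439, 374 and 583 CPM. The muscle sum in Low was again lower in Female2 and Male2, at 57.8, 35.7, 45.7 and 41.5 CPM in Female1, Female2, Male1 and Male2. The High libraries of Female2 and Male2 also had fewer genes detected, 24820 and 22208 against 27395 in Female1 and 26623 in Male1, and lower TMM factors, 0.792 and 0.679 against 0.944 and 0.896. In Low the TMM factors were 1.234, 1.304, 1.178 and 1.16 in Female1, Female2, Male1 and Male2, highest in Female2. The part of these measures in the differences between animals was not tested. Without both libraries of Female2, which carried the gastric transcripts, edgeR's adjusted p was 0.235 for Dbp and for Tef.

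**Figure D3:**
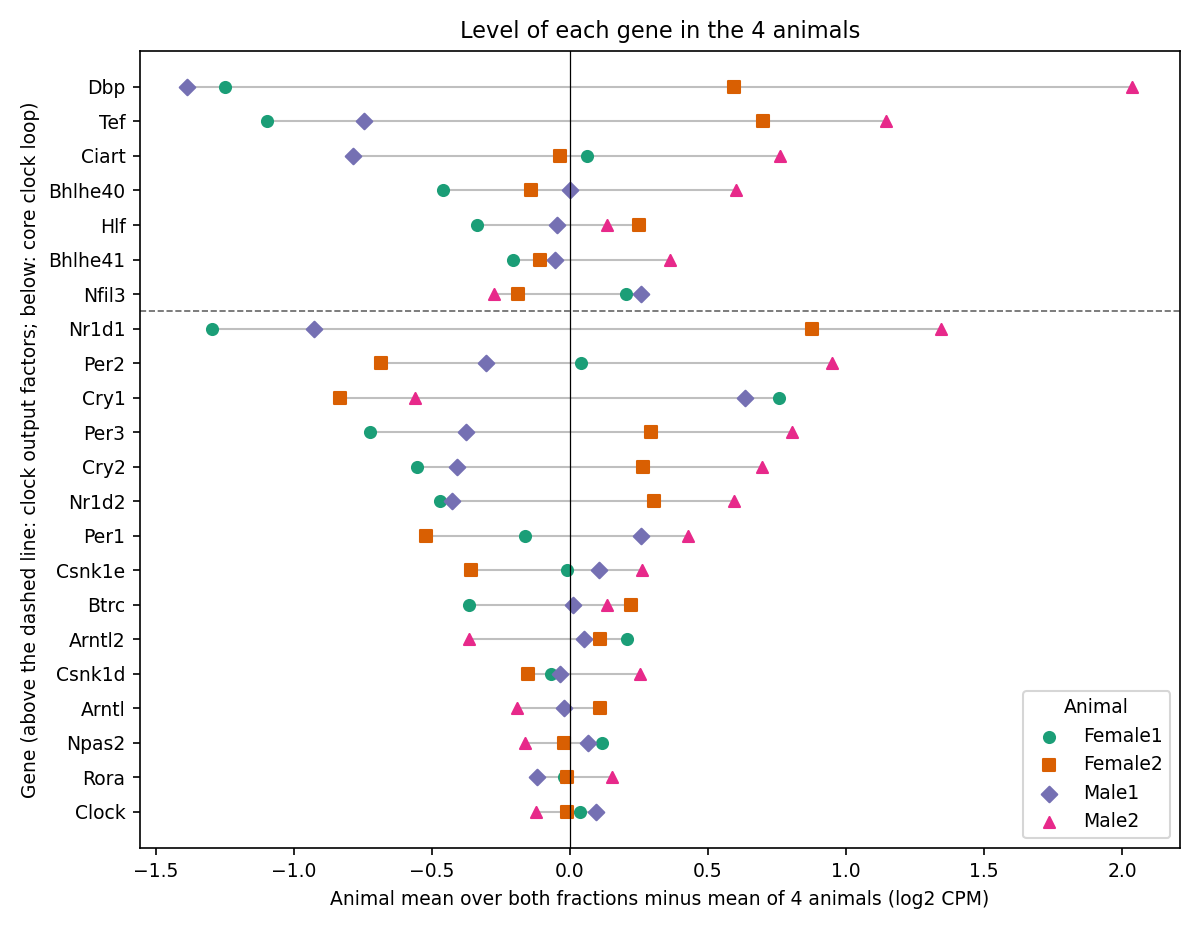
Mean of both fractions in each animal minus the mean of the 4 animals (log2 CPM), for the 7 clock output factors above the dashed line and 15 core loop genes below it. Dbp, Tef and Nr1d1 show the widest spread with Female2 and Male2 on the right, Nfil3 and Cry1 have these animals on the left, and Clock and Rora lie near 0.

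No difference by sex was called for the 7 genes. With both libraries of an animal added up, 2 males against 2 females, edgeR called 4 of 19687 genes, a background of 0.0203%, with 284 at an unadjusted p under 0.05. The 7 genes all had an adjusted p of 1, and the lowest unadjusted p by edgeR was 0.0342 for Bhlhe40, which was higher in males by 0.60 (SE 0.24) on the log2 scale. The interaction of sex and fraction was called by edgeR for 0 genes, with 19 at an unadjusted p under 0.05, and for 0 genes with the animal as a replicate block, with 38. For the 7 genes the unadjusted interaction p in edgeR ran from 0.261 for Ciart to 0.937 for Dbp. With 2 animals of each sex these tests leave wide errors, as the difference of 1.15 (SE 0.98) between males and females for Dbp shows.

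The core clock loop was a list also drawn up with earlier results known, and nothing particular to it is read from its counts. Of the 15 genes reported 4 were lower in High, 1 higher and 10 neither by edgeR's test, beside 25.3% lower and 23.4% higher among all genes, with a median log2 fold change of 0.17 (−0.05 without High Male2) against −0.09 over all genes. Among the activators, Npas2 fell by 2.16 (SE 0.18, edgeR adjusted p = 1.8e-05) and Arntl by 1.20 (SE 0.14, adjusted p = 9.3e-05) while Clock rose by 0.81 (SE 0.15, adjusted p = 0.00159). Npas2 stood at 43.0, 36.9, 48.0 and 29.5 CPM in the Low libraries of Female1, Female2, Male1 and Male2 and at 9.30, 8.97, 7.78 and 9.21 CPM in High. These groups did not overlap, and those of Clock, at 111 to 144 CPM in Low and 200 to 241 CPM in High, were apart in the other direction.

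Csnk1e, a kinase of PER proteins, fell by 1.26 (SE 0.16, edgeR adjusted p = 0.000169), while the related kinase gene Csnk1d stood at 0.18 (SE 0.17, adjusted p = 0.413) and was not called. Btrc, part of a ubiquitin ligase for PER proteins, fell by 0.97 (SE 0.21, adjusted p = 0.00364). With the animal as a replicate block Per3 at 0.93 (edgeR adjusted p = 0.000305) and Cry2 at 0.47 (0.0117) were higher as well, and Nr1d2 at −0.85 (0.000959) and Per2 at −0.64 (0.0188) lower. Under scaling by total counts alone the median of the loop was −0.419, 7 genes were lower and 0 higher, and Clock lost its call (0.25, edgeR adjusted p = 0.17).

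Of 8 genes described as targets of PAR bZIP factors in liver and kidney 6 passed the filter, of which 3 were higher in High and 0 lower by edgeR's test, beside 23.4% higher and 25.3% lower among all genes, with a median log2 fold change of 0.71, or 0.141 under scaling by total counts. Por, the electron donor of microsomal P450 enzymes, rose by 1.02 (SE 0.18, edgeR adjusted p = 0.000988) and Alas1, the first enzyme of heme synthesis, by 1.37 (SE 0.18, adjusted p = 0.000221). Alas1 stood at 41.1, 31.7, 42.1 and 46.8 CPM in the Low libraries of Female1, Female2, Male1 and Male2 and at 74.9, 101, 96.2 and 149 CPM in High, with no overlap. Cyp2a5 rose by 4.24 (SE 0.92, edgeR adjusted p = 0.00382), a value that is uncertain because reads may be shared with its near-identical neighbour Cyp2a4. With the animal as a replicate block Ppara, a nuclear receptor of fatty acid metabolism, was higher as well (0.41, edgeR adjusted p = 0.0398). Nr1i3 and Cyp7a1, which encode a xenobiotic receptor and the rate-limiting enzyme of bile acid synthesis, were at or near 0 in every library.

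The C/EBP family holds relatives of the PAR bZIP factors that can bind related sequences. Of its 6 genes 5 were tested, and Cebpb at 1.99 (SE 0.23, edgeR adjusted p = 9.8e-05) and Cebpa at 1.45 (SE 0.21, adjusted p = 0.000342) rose while Cebpd fell by 0.79 (SE 0.16, adjusted p = 0.00225), beside the same background of 48.7% called. The other 2 did not pass the test, and the median of 0.32 turned to −0.236 under scaling by total counts.

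Among 10 genes that cycle in many tissues, 4 were lower, 3 higher and 3 neither by edgeR's test, beside the same background. Their median log2 fold change was −0.18, or −0.729 under scaling by total counts and 0.174 among genes with at least 10 counts in every library. Wee1, a kinase that restrains entry into mitosis, fell by 2.87 (SE 0.29, edgeR adjusted p = 4.4e-05), and Dtx4, Lonrf3 and Tsc22d3 fell by 1.98, 1.88 and 1.08. Fkbp5, a glucocorticoid-responsive chaperone partner, rose by 1.75 (SE 0.18, edgeR adjusted p = 4.4e-05), Pfkfb3 by 1.55 and Herpud1 by 0.70, the last of which was not called under scaling by total counts (0.128, adjusted p = 0.323). Fkbp5 and Tsc22d3, both known targets of the glucocorticoid receptor, thus lay on opposite sides.

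**Figure D4:**
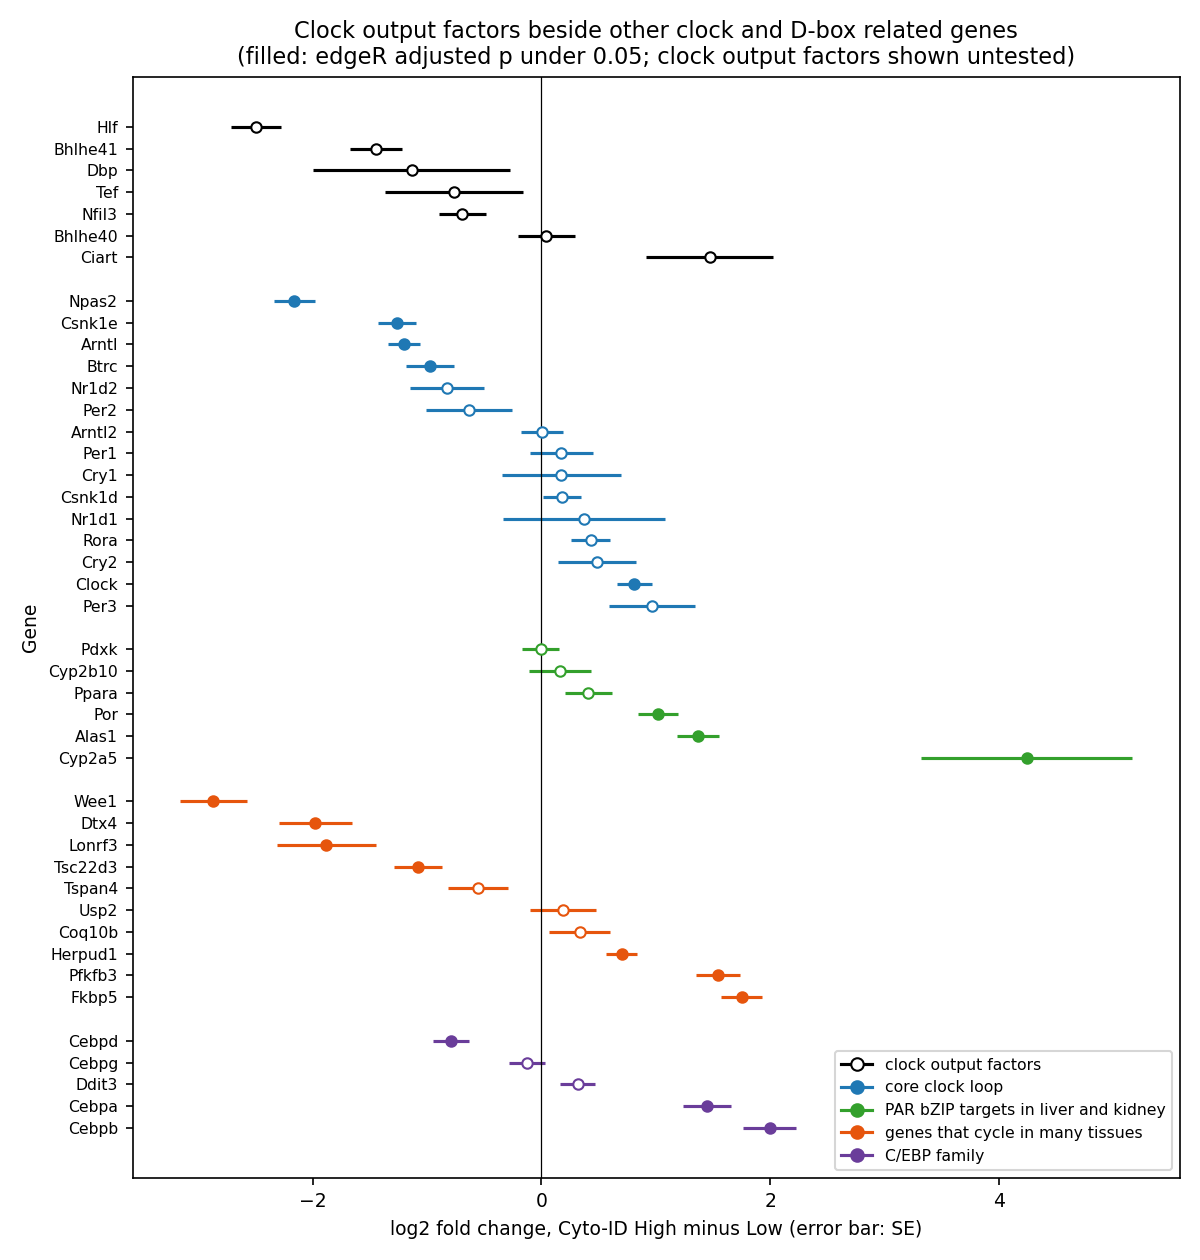
Log2 fold change between Cyto-ID High and Low (points) with its SE (bars) for the 7 clock output factors and 4 related gene lists; filled points passed edgeR's test, and the clock output factors are all drawn open, since their difference is a description, whether or not they met the limit of that test. Hlf lies at −2.50 and Ciart at 1.47 among the output factors, and Npas2 at −2.16 lies opposite Clock at 0.81 in the core loop.

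The genes whose profile was nearest to that of each bZIP factor were sought among 10007 genes with a mean of at least 5 CPM, by the root mean square distance of centred log2 CPM over the 8 libraries, which share animals and fractions. Nearest to Dbp were Tef at 0.737, Nr1d1 at 0.761 and Nr1d2 at 1.04, all genes of the clock system. Nearest to Tef were Nr1d2 at 0.54, the ion channel gene Trpv4 at 0.564 and the pyruvate dehydrogenase kinase gene Pdk2 at 0.57. Nearest to Hlf were Rbbp8 at 0.0956, Vwa5a at 0.107 and Paics at 0.12, and nearest to Nfil3 were Srek1 at 0.0605, Prpf3 at 0.0959 and Dbf4 at 0.0983.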

How the data were processed

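Bulk RNA-seq libraries were analysed from the raw counts per gene symbol that the authors deposited as 1 table. That the values are counts follows from whole numbers whose totals differ between libraries. The submitters' processing notes name STAR 2.7.3, DESeq2 and GRCm38 without a role, and the counting tool, annotation and strandedness are not given in the sources used here, so reads of overlapping or antisense genes cannot be told apart. Libraries were grouped by the labelled Cyto-ID fraction. Same-named libraries came from 1 animal's suspension, so the animal served as a replicate block in an alternative to the sex covariate of the main test. Deviations from the fraction means, correlated across genes, gave 0.43, 0.32, −0.02 and 0.28 within Female1, Female2, Male1 and Male2 and −0.37 to 0.35 between animals.

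Tests were run with edgeR 4.0.16 in R 4.3.3 (filterByExpr, TMM, glmQLFit, glmQLFTest), two-sided, with Benjamini-Hochberg adjustment over all genes tested and a threshold of 0.05. The fraction was tested with sex as the covariate, the animals by 3 coefficients beside the fraction, and sex on counts summed per animal. Standard errors are the fold change divided by the root of F. Log2 CPM used a prior count of 2. Fits were tested on simulated data. Exon lengths, positions and overlaps came from GENCODE M21. The genes named were the 7 members, the genes of 4 pathway lists and the 3 nearest profiles per bZIP factor, leaving out names beginning with Gm and a digit or ending in Rik. Marker genes come from the marker lists, and Gm10800 and the sex-linked genes were named after their values were seen. The core loop list held 2 further genes that are not reported here, and its counts and median are over the other 15. The members and lists were chosen with earlier results of these data known. Alternatives were RLE size factors, total counts, no filter, 10 counts in every library, DESeq2 1.42.0, limma-voom (limma 3.58.1), the animal as a replicate block, no covariate, each library left out, and each fraction alone for sex. Leaving out Female2 was chosen after seeing the data. The split of the animals by number was not among the planned comparisons.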

Additional observations from a re-analysis of the deposited data

How the results depend on the processing

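Among the genes of the 5 lists that were followed through each setting, no alternative reversed a called difference. The number of genes called between High and Low stayed between 7269 and 10708 around 8440, and scaling by total counts changed the split from 4055 higher and 4385 lower to 2194 higher and 8514 lower. Members within the limit, a description only, numbered 3, 2 to 4 with 1 library left out, and 6 without a filter or in the paired fit with the animal as a replicate block, which called 9336 genes in all. Core clock loop genes called numbered 5, 8 with DESeq2, 8 without a filter and 9 with the replicate block. Genes called between animals numbered 6, 1 with total counts, 943 without a filter, 19 with at least 10 counts in every library, 0 to 16 with 1 library left out, and 0 without both libraries of Female2, an alternative chosen after seeing the data. Genes called between the sexes numbered 4, 15 without a filter, 0 in the High and 1 in the Low libraries alone, and the interaction gave 0 throughout. The causes of these shifts were not tested. Leaving out a library leaves its animal with 1 library, which is assumed to vary like the others. Among the 7 output factors depth limits Ciart most, with 14 to 87 counts per library, and 4 animals limit every comparison between animals.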
